A study of Danio rerio with 16 samples.

Results

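Larvae without functional Klf9 were compared with wild-type (WT) larvae in the absence of added hormone, to ask which transcripts depend on klf9 under basal conditions. The comparison used 8 of the 16 samples of the experiment, chosen by their labels: 4 samples of klf9-/- larvae and 4 of WT larvae, all given vehicle (DMSO) from about 4 h after fertilization and collected at 5 days post fertilization (dpf). The other 8 samples, of the same genotypes treated with 1 µM cortisol, entered only where stated. Each sample held 10 whole larvae of AB background, raised in 14 h light and 10 h dark and collected 3 h after lights-on. The klf9-/- line descends from 1 founder female and carries a 2 bp frameshift deletion in exon 1, ahead of the part that encodes the DNA-binding zinc fingers. Mutant and WT larvae came from homozygous parents that were siblings, and all larvae of a condition shared 1 dish, so the replicates are samples of 1 dish and the spread between them does not include that between dishes. Extraction took 2 days: on day 1, for replicates 1 and 2, lysis buffer went onto all samples before homogenization began, and on day 2, for replicates 3 and 4, samples were homogenized at once. The paper also counts replicates 3 and 4 as the later samples, so preparation day and order of collection cannot be told apart.

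Klf9 is a Krüppel-like zinc finger protein that binds GC-rich sequence in promoters and mostly represses transcription. Its gene is induced directly by glucocorticoid and thyroid hormone receptors and follows the circadian clock in many tissues, so it is known as a relay between hormones and slower gene programs. In mammals it has been described in the liver, in neurons, in skin and in the epithelium of the small intestine, where loss of the gene alters crypt cells and villus length.

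Values were deposited as log2(normalized count + 0.1) and are given below as normalized counts. After full-quantile normalization all samples share 1 distribution of values, which sums to 14653434, so the depth of the libraries is unknown and the errors come only from the spread between samples. The most abundant transcripts can hold the same rank, and thus the same value, in every sample: this applied to 15 genes above 0, among them the muscle gene ckma and the skin gene krt4, whose differences cannot be seen. The tissues of a whole larva were present by their defining markers, such as 3561 to 4960 normalized counts of the liver gene fabp10a, 2374 to 6366 of the neuronal gene ELAVL3 and 3625 to 9118 of the enterocyte gene FABP2. Since whole larvae were used, fewer cells of a type and less RNA per cell cannot be told apart in any result. Symbols are those the annotation pairs with the identifiers, in capitals where the name is that of the human gene.

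The klf9 transcript itself (ENSDARG00000068194, chromosome 5) had 274, 250, 243 and 165 normalized counts in WT replicates 1 to 4 and 135, 78, 100 and 111 in klf9-/- replicates 1 to 4. All mutant samples lay below all WT samples. The means were 233 ± 47.2 (SD, n = 4) and 106 ± 23.7 (SD, n = 4), a log2 difference of -1.14 (SE 0.19, limma adjusted p = 0.034). A frameshift need not remove the transcript, and its remaining level says nothing of the protein. With a sample left out the difference stayed between -1.29 and -0.94, but only the fit without WT replicate 4 kept an adjusted p under 0.05. An exact two-sided permutation test of genotype within preparation days gave p = 0.056, the smallest value that its 36 arrangements allow.

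Of 21461 genes tested with limma, with genotype and preparation day in the model, 45 rose (0.21%) and 62 fell (0.289%) with the mutation at a threshold of 0.05 on the adjusted p, together 107 genes or 0.499% of those tested. At an unadjusted p under 0.05, 6.82% of genes were higher and 7.54% lower. The median log2 difference over all genes tested was 0.01, and 51.4% of genes were higher in the mutant. The called differences were mostly of moderate size, with a median of 0.86 for the genes that rose and -0.75 for those that fell, and 34 of the 107 exceeded 1 on the log2 scale. Samples of the genotypes did not overlap for 73 of the 107 genes, against 3.92% of all genes tested (1.85% with the mutant above and 2.06% with it below). Taken within each preparation day the genotypes were separate for all 107 genes, against 11.9% of all genes tested (5.86% above and 6.01% below). The 107 genes were picked by a test on these same samples, so their separation describes the calls and does not test them. The number of calls was sensitive to single samples: it ranged from 17 to 51 genes higher and from 11 to 81 genes lower when each sample was left out, fewest falls without klf9-/- replicate 2, and 22 of the 107 genes stayed called in all 8 of these fits.

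**Figure D1:**
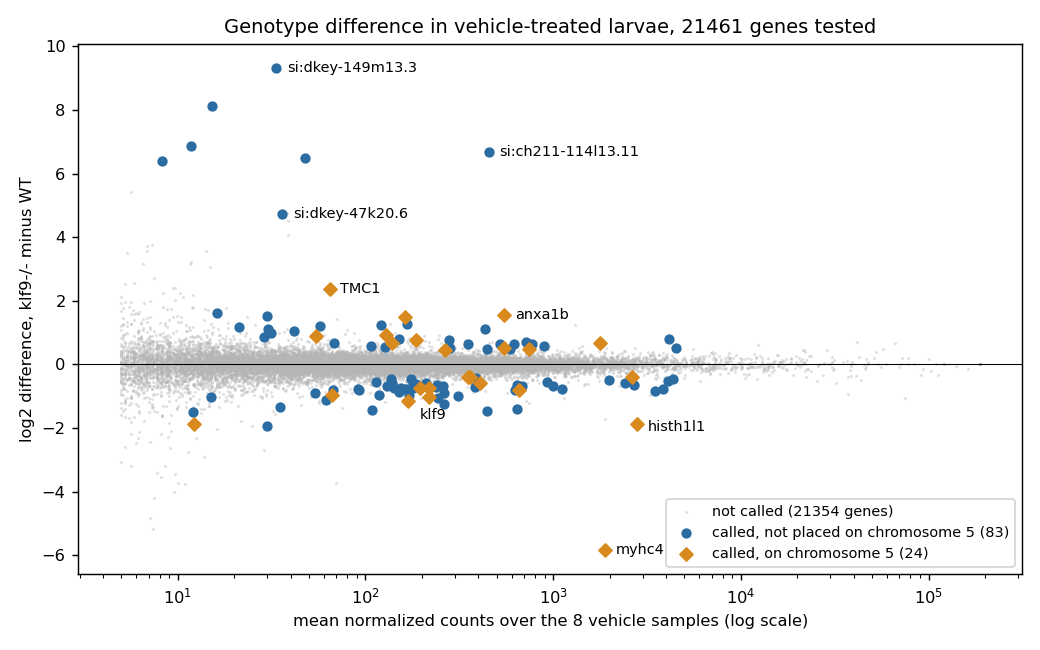
Log2 difference between klf9-/- and WT larvae in vehicle (y axis) against the mean normalized count of each gene over the 8 samples (x axis, log scale). Grey points are genes that were not called, blue points the 83 called genes not placed on chromosome 5, and orange diamonds the 24 called genes on chromosome 5; most called genes lie within 2 on the log2 scale, and a group of 7 genes that are nearly absent in WT larvae lies above 4.

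Genes of the intestinal epithelium were mostly lower in klf9-/- larvae. Of 28 enterocyte genes measured, 5 fell and none rose: LCT (lactase, the brush-border enzyme that splits milk sugar), chia.3 (a chitinase of the acidic mammalian type), apoa4b.2 (an apolipoprotein A-IV, secreted with dietary lipid), ctsl.1 (a cathepsin L protease) and CUBN (cubilin, an endocytic receptor for vitamin B12 bound to its carrier). Over all genes tested 0.289% fell and 0.21% rose. In all, 23 of the 28 were lower in klf9-/- larvae, with a median log2 difference of -0.34 against 0.01 for all genes tested. Without overlap on both days, 12 of the 28 were lower in the mutant, against 6.01% of all genes.

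The values of apoa4b.2 were 7040, 7868, 2831 and 2340 normalized counts in WT replicates 1 to 4 and 3304, 3860, 1724 and 1896 in klf9-/- replicates 1 to 4. Day 2 samples were lower than day 1 samples in both genotypes, and on each day both mutant samples lay below both WT samples. The log2 difference was -0.78 (SE 0.12, adjusted p = 0.031). LCT (ENSDARG00000092404) had 134, 104, 48 and 50 in WT and 68, 45, 20 and 24 in klf9-/- larvae, so that the mutant level was about 45.9% of WT (log2 -1.12, SE 0.15, adjusted p = 0.015). For chia.3, 564, 422, 206 and 162 stood against 180, 188, 133 and 96, where the gap was wider on day 1 than on day 2 (log2 -1.05, SE 0.18, adjusted p = 0.037). For these 3 genes the genotypes overlapped only between days, at least 1 WT sample of day 2 lying below a mutant sample of day 1.

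CUBN and ctsl.1 differed less between days and did not overlap between genotypes. CUBN had 242, 278, 242 and 239 in WT and 155, 170, 186 and 160 in klf9-/- larvae (log2 -0.58, SE 0.09, adjusted p = 0.028). For ctsl.1 the values were 1367, 1682, 1430 and 1154 against 1032, 895, 766 and 621 (log2 -0.78, SE 0.11, adjusted p = 0.023). Further members that did not pass were SLC15A1 (the peptide transporter PEPT1) at -0.72 (SE 0.14, adjusted p = 0.064), chia.1 at -0.61 (adjusted p = 0.075), and, for the meprin proteases of the brush border, mep1a.1 at -0.35 (adjusted p = 0.076) and MEP1B (ENSDARG00000037533) at -0.60 (adjusted p = 0.066). FABP2, the intestinal fatty acid binding protein, was at -0.21 (adjusted p = 0.45).

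Other genes with known roles in absorptive epithelia fell as well. By the rule on the largest falls these were apoa4b.3, a second apolipoprotein A-IV gene (log2 -0.99, adjusted p = 0.027), alp3, an alkaline phosphatase (-0.95, adjusted p = 0.024), and tcnba, a vitamin B12 carrier of the transcobalamin type (-1.04, adjusted p = 0.005). NPC1L1, the membrane protein through which enterocytes take up cholesterol, had 536, 459, 190 and 206 normalized counts in WT and 230, 221, 134 and 121 in klf9-/- larvae (log2 -0.89, SE 0.11, adjusted p = 0.013). It was lower in the mutant on each day and overlapped between days. Chosen after their values were seen, tcn2 (transcobalamin, -0.81), SLC6A18 (an amino acid transporter, -0.80), slc34a2b (a sodium-phosphate transporter, -0.71), FOLR2 (a folate receptor, -0.68), PEPD (prolidase, -0.66) and ctsbb (cathepsin B, -0.64) also fell, at adjusted p between 0.0017 and 0.032. Of these genes tcnba and tcn2 lie on chromosome 5, the chromosome of klf9. All genes of this paragraph were named because they fell, so they add no test of the enterocyte list. Genes with such roles that did not fall were not counted. SLC6A18 had 84, 101, 76 and 82 in WT and 49, 48, 48 and 51 in klf9-/- larvae, so that its mutant samples were close together and all below WT.

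The summed level of the 28 enterocyte genes ranged from 34451 to 61300 normalized counts in WT and from 28590 to 51648 in klf9-/- samples, and those ranges overlapped. No gene of the exocrine pancreas list was called (21 tested, median 0.09), but its level varied widely between samples. The list summed to 111404 in WT replicate 1, to 36293 to 44627 in the other WT samples and to 45788 to 69258 in klf9-/- samples. Without WT replicate 1, 3 of its genes were called. Under cortisol 19 of the 21 were lower in klf9-/- larvae, with a median of -0.39, and 2 were called lower, against 1.99% of all genes tested. Of the 28 enterocyte genes, 6, 1, 3 and 2 were called without WT replicates 1 to 4 and 2, 0, 2 and 3 without klf9-/- replicates 1 to 4. With the replicate number as a block in place of day, 4 were called and apoa4b.2 was lost (adjusted p = 0.066), as were apoa4b.3 (0.067) and alp3 (0.063). With all 16 samples and 1 day term, 1 of the 28 was called, ctsl.1 (adjusted p = 0.004). NPC1L1 was not called in that fit (adjusted p = 0.22). With all 16 samples and a mean for each condition and day, 10 of the 28 were called. In cortisol-treated larvae, 20 of the 28 enterocyte genes were lower in klf9-/- than in WT larvae, and the median was -0.14. There 9 were called lower and none higher, against 1.99% and 0.881% of all genes tested. Of the genes called in vehicle, apoa4b.2, chia.3 and ctsl.1 were called there too. CUBN (log2 -0.11, limma adjusted p = 0.73) and LCT (-0.56, adjusted p = 0.099) were not.

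**Figure D2:**
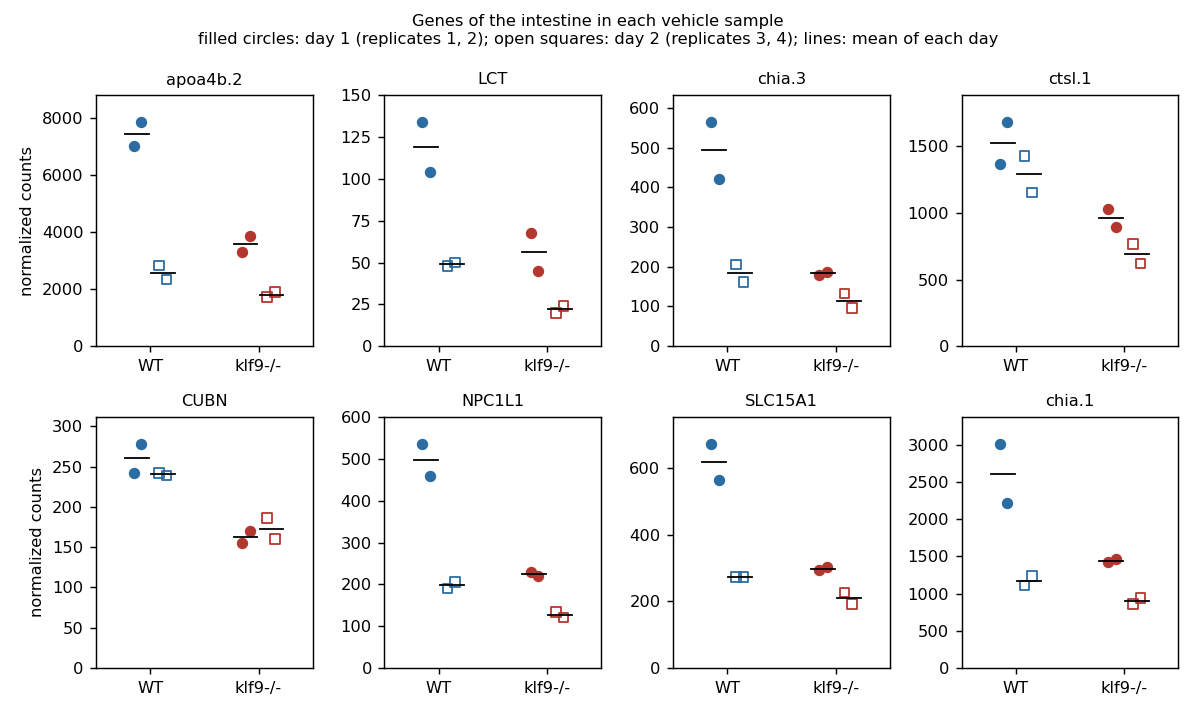
Normalized counts (y axis, from 0) of 8 genes of the intestine in each vehicle sample of WT (blue) and klf9-/- larvae (red), with filled circles for day 1, open squares for day 2 and black lines for the mean of each day. On each day both mutant samples lie below both WT samples in all 8 panels. For every gene but ctsl.1 and CUBN, WT samples of day 2 lie below or among mutant samples of day 1 or close above them. SLC15A1 and chia.1 did not pass the test.

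Cholesterol synthesis turns acetyl-CoA through mevalonate, farnesyl diphosphate, squalene and lanosterol into cholesterol, and SREBP transcription factors raise its genes when membrane sterol is low. All 24 genes of the pathway were lower in klf9-/- larvae, and 3 fell, where 0.289% of all genes tested did. These were HMGCS1 (HMG-CoA synthase, the step before mevalonate), FDFT1 (squalene synthase, the first step committed to sterols) and CYP51A1 (lanosterol demethylase). The median log2 difference was -0.55 against 0.01 for all genes tested, -0.31 over the 9 genes up to farnesyl diphosphate and -0.58 over the 15 genes from squalene on.

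CYP51A1 had 678, 1174, 1072 and 774 normalized counts in WT and 512, 470, 260 and 226 in klf9-/- larvae, with no overlap (log2 -1.39, SE 0.23, adjusted p = 0.038). The difference was -0.86 on day 1 and -1.91 on day 2. HMGCS1 had 732, 1006, 833 and 800 against 566, 584, 503 and 455, again with no overlap (log2 -0.67, SE 0.10, adjusted p = 0.027). For FDFT1, 162, 152, 171 and 173 stood against 112, 92, 107 and 134 (log2 -0.58, SE 0.10, adjusted p = 0.047). Further members did not pass. The sterol desaturase SC5D was at -0.83 (adjusted p = 0.055), MSMO1, which removes methyl groups from sterols, at -1.20 (adjusted p = 0.084) and the reductase TM7SF2 at -0.54 (adjusted p = 0.066).

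Sterol uptake and feedback genes moved in part. Besides NPC1L1, ldlrb, a receptor for low-density lipoprotein, fell: 192, 268, 188 and 177 in WT against 125, 138, 94 and 127 in klf9-/- larvae (log2 -0.76, SE 0.13, adjusted p = 0.037). Over all genes tested 0.289% fell, 0.21% rose and 48.6% were lower. Of 17 sterol uptake and feedback genes, 2 fell, none rose, 11 were lower and the median was -0.23. That median was -0.28 on day 1 alone, -0.0 on day 2 alone and -0.06 under cortisol. In cortisol-treated larvae NPC1L1 was called lower (-0.59, limma adjusted p = 0.013) and ldlrb was not called (-0.21, adjusted p = 0.51). The master regulator srebf2 had 1025, 1164, 1112 and 1033 against 800, 836, 694 and 876, without overlap (log2 -0.44, SE 0.088, adjusted p = 0.074), and STARD4, a sterol carrier, was at -0.63 (adjusted p = 0.14). In neither case was the threshold passed. From fatty acid synthesis, 2 of 15 genes fell, ELOVL2 (elongation of very long polyunsaturated fatty acids, -0.81, adjusted p = 0.016) and ME1 (malic enzyme, a source of NADPH, -0.65, adjusted p = 0.023), while ACLY, which makes cytosolic acetyl-CoA, was at -0.19 (adjusted p = 0.25) and the median was -0.08. With the replicate block ME1 had an adjusted p of 0.059.

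The calls among sterol synthesis genes rested on single samples: without WT replicate 1, 9 of the 24 were called, without klf9-/- replicate 4 there were 2, and without any other single sample there were none. With a replicate block, 2 of the 24 were called (HMGCS1 and SC5D, adjusted p = 0.036 and 0.047), while CYP51A1 (0.068) and FDFT1 (0.058) were not. The direction held throughout, with a list median between -0.57 and -0.49 over the 8 fits. Under cortisol 23 of the 24 were lower in klf9-/- than in WT larvae, with a median of -0.46. Of the 24, 10 were called lower there, against 1.99% of all genes tested. Among the genes called in vehicle, CYP51A1 was called there too (log2 -1.24, limma adjusted p = 0.0046). HMGCS1 (-0.49, adjusted p = 0.27) and FDFT1 (-0.3, adjusted p = 0.22) were not.

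**Figure D3:**
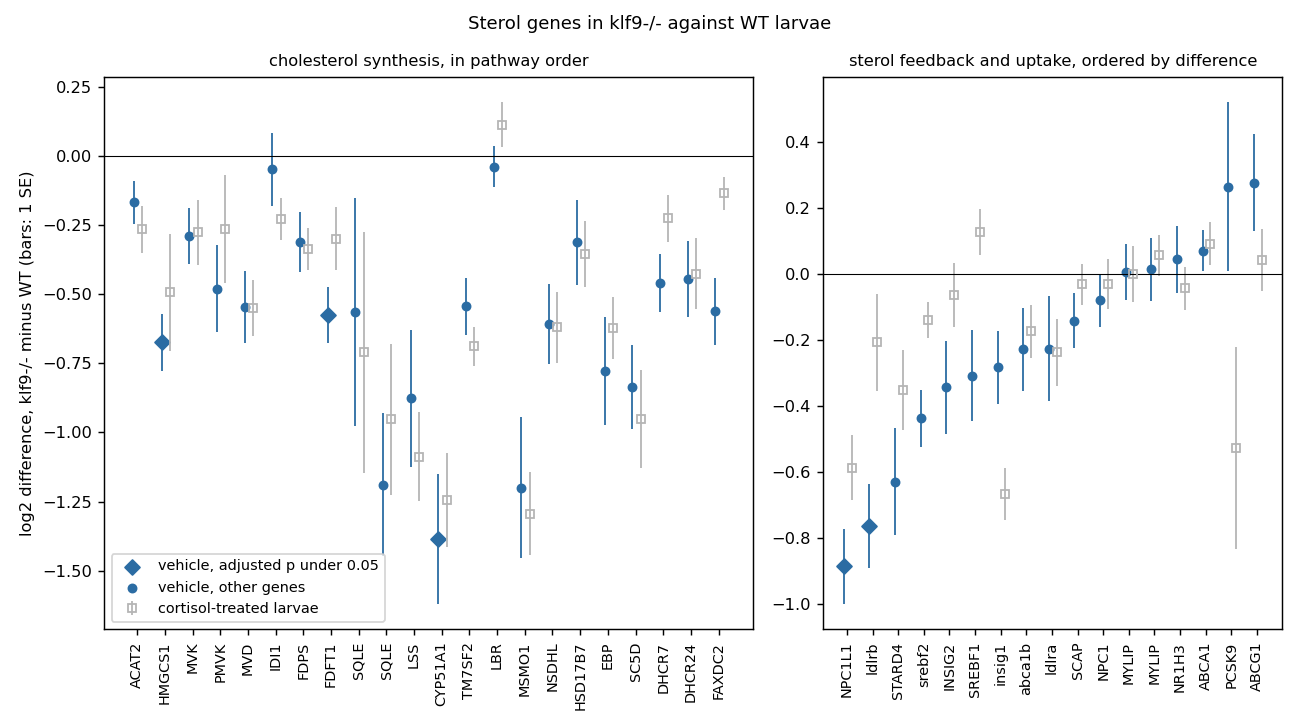
Log2 difference between klf9-/- and WT larvae (y axis, bars 1 SE) for 22 of the 24 genes of cholesterol synthesis in pathway order (left) and 17 genes of sterol feedback and uptake ordered by their difference (right), in vehicle (blue, diamonds where the adjusted p is under 0.05) and in cortisol-treated larvae (grey squares). All 22 synthesis genes shown lie below 0 in vehicle, 3 of them called, and NPC1L1 and ldlrb are the called genes on the right.

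Genes for plasma proteins of the complement and coagulation cascades, made mainly by hepatocytes, were higher in klf9-/- larvae. Of 24 complement genes measured, 4 rose, none fell and 18 were higher, with a median of 0.30. Over all genes tested 0.21% rose. On both days 13 of the 24 were above WT without overlap, against 5.86% of all genes tested. Those that rose were c4, c5, c9 and c3a.3, which encode a component of the classical pathway, a component that starts the terminal pathway, the pore-forming component and a copy of the central component C3. Of 27 coagulation genes, 24 were higher and 2 rose, f5 (clotting factor V) and habp2 (a plasma protease), with a median of 0.22. From a list of 27 other liver plasma proteins only serpina1l (an alpha-1-antitrypsin type protease inhibitor) was called, and the median was 0.09.

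The gene c9 (chromosome 5) had 1611, 1841, 1053 and 830 normalized counts in WT and 3366, 2793, 1332 and 1367 in klf9-/- larvae (log2 0.68, SE 0.11, adjusted p = 0.031). For c5, also on chromosome 5, 610, 612, 314 and 264 stood against 916, 792, 453 and 408 (log2 0.53, SE 0.085, adjusted p = 0.032). Both showed the same arrangement: mutant above WT on each day, and day 2 well below day 1. The complement genes c3a.2 and c4b, outside the list but among the largest rises, rose as well. The first had 342, 368, 218 and 167 in WT and 890, 713, 426 and 362 in klf9-/- larvae (log2 1.1, SE 0.11, adjusted p = 0.0041). The second had 147, 153, 68 and 76 against 278, 235, 120 and 131 (log2 0.79, SE 0.088, adjusted p = 0.0065). Both calls were kept when any single sample was left out, but not when all 16 samples were fitted with 1 day term (adjusted p = 0.053 for c3a.2 and 0.32 for c4b). Under cortisol the genotype difference was 0.62 for c3a.2 (adjusted p = 0.054) and on the other side of 0 for c4b, at -0.77 (adjusted p = 0.18), a difference of -1.55 between the treatments that did not pass (adjusted p = 0.11). The C3 genes are close copies of each other, and reads could be shared out differently among them by the counting, which was not tested.

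Factor V had 374, 350, 192 and 184 in WT and 568, 516, 332 and 288 in klf9-/- larvae (log2 0.65, SE 0.08, adjusted p = 0.01), and its call was kept in 7 of 8 fits with a sample left out but not with all 16 samples and 1 day term (adjusted p = 0.32). Genes of the same lists that did not pass included cfh (complement factor H, 0.67, adjusted p = 0.066), cfb (factor B, 0.40, adjusted p = 0.084), serpinf2a (antiplasmin, 0.51, adjusted p = 0.087), PLG (plasminogen, 0.43, adjusted p = 0.095) and SERPINC1 (antithrombin, 0.40, adjusted p = 0.12). The hepatocyte marker fabp10a was at 0.14 (adjusted p = 0.52), with 3561 to 4540 in WT and 3948 to 4960 in klf9-/- samples. The summed level of the liver plasma protein list ranged from 152596 to 240921 in WT and from 152311 to 243738 in klf9-/- samples and was lower on day 2 in both genotypes. LIPC (hepatic lipase), one of the largest rises, had 38, 44, 18 and 12 against 76, 74, 33 and 37 (log2 1.06, SE 0.16, adjusted p = 0.024, with the replicate block 0.053).

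Of the 24 complement genes, 3, 1, 1 and 0 were called without WT replicates 1 to 4 and 1, 0, 0 and 0 without klf9-/- replicates 1 to 4. With the replicate block 1 of them was called, c5 (adjusted p = 0.039). The block took c4 to an adjusted p of 0.084, c9 to 0.067, c3a.3 to 0.069 and habp2 to 0.060. The call of c4, at 14 to 55 normalized counts, was lost whichever sample was left out. With all 16 samples and 1 day term, 0 complement and 0 coagulation genes were called. With all 16 samples and a mean for each condition and day, 7 and 5 were. Under cortisol the complement list had a median of 0.02 with 1 of the 24 genes called, against 2.87% of all genes tested. The difference between the treatments was itself called for c3a.3: klf9-/- minus WT was 0.63 in vehicle and -0.32 under cortisol (difference -0.95, adjusted p = 0.0098 from all 16 samples).

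**Figure D4:**
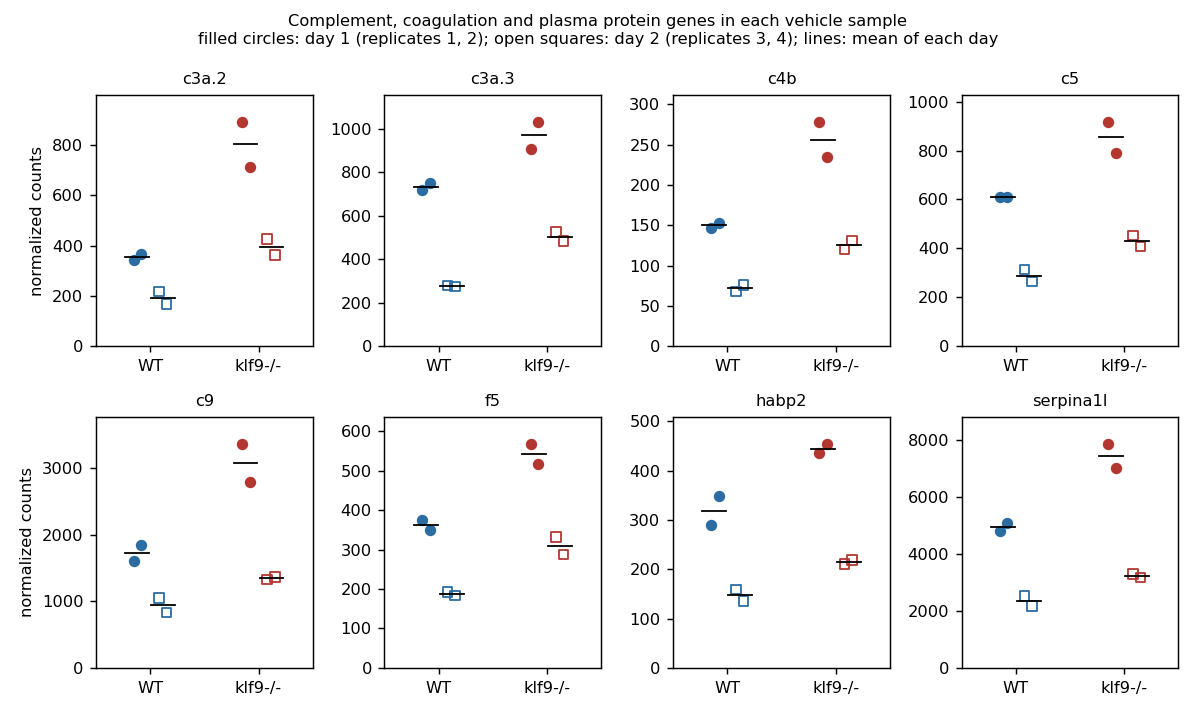
Normalized counts (y axis, from 0) of 5 complement genes, 2 coagulation genes and serpina1l in each vehicle sample of WT (blue) and klf9-/- larvae (red), with filled circles for day 1, open squares for day 2 and black lines for the mean of each day. In all 8 panels the mutant samples lie above the WT samples of the same day, and day 2 samples lie below day 1 samples of the same genotype.

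Among genes of chromatin and the cell cycle the calls were few and of both signs. Among linker histones, H1-10 rose (log2 0.64, adjusted p = 0.0091) and histh1l1, on chromosome 5, fell (-1.86, adjusted p = 3e-05). From 22 chromatin remodelers 1 rose, smarca1 on chromosome 5 (0.47, adjusted p = 0.031, with the replicate block 0.071), and their median was 0.02. Outside the lists and chosen after its value was seen, KDM1A, a histone demethylase, fell by 0.50 on the log2 scale (adjusted p = 0.015). Over all genes tested 48.6% were lower, 0.289% fell and 0.21% rose. Of 37 cell cycle genes, 28 were lower, 2 fell and the median was -0.11. The fallen genes were cdkn1a (the cyclin kinase inhibitor p21, -0.56, adjusted p = 0.035, with the replicate block 0.071) and a copy of RRM2 (the small subunit of ribonucleotide reductase). The call of cdkn1a was lost in 7 of 8 fits with a sample left out, and under cortisol it was at -0.14 (limma adjusted p = 0.77). The replication helicase genes MCM2, MCM4 and MCM7 were at -0.39, -0.33 and -0.41 (adjusted p = 0.12, 0.14 and 0.11).

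RRM2 is the symbol of 2 genes in the table. The first (ENSDARG00000020711) had 572, 519, 813 and 667 normalized counts in WT and 332, 152, 211 and 272 in klf9-/- larvae (log2 -1.45, SE 0.21, adjusted p = 0.023). The other (ENSDARG00000078069) had 634, 842, 838 and 805 against 881, 1333, 1164 and 1029, on the other side of 0 (log2 0.49, SE 0.14, adjusted p = 0.16). Summed, the genes had 1420 ± 187 (SD, n = 4) in WT and 1340 ± 115 (SD, n = 4) in klf9-/- larvae, lower in 2 of the 4 pairs of same-numbered samples. The sum differed by less than the spread between samples, and how reads were assigned between the genes was not tested.

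Genes of heme and the red cell gave single calls. Those outside the lists (ALAS1, rh50 and blvrb) were chosen after their values were seen. ALAS1, the first enzyme of heme synthesis outside the red cell lineage, had 3558, 3558, 2958 and 3014 in WT and 2310, 2118, 1724 and 2214 in klf9-/- larvae (log2 -0.65, SE 0.086, adjusted p = 0.014). Every mutant sample was below every WT sample. Of 12 erythrocyte genes, 11 were lower and 1 fell, SLC4A1 (ENSDARG00000012881, the anion exchanger band 3, -0.42, adjusted p = 0.043), while alas2, the red cell enzyme, was at -0.41 (adjusted p = 0.18). The median of the list was -0.18, and over all genes tested 48.6% were lower and 0.289% fell. The Rhesus-type gene rh50 fell (-0.80, adjusted p = 0.034), and blvrb, a biliverdin and flavin reductase, rose (0.55, adjusted p = 0.034). The calls of SLC4A1 and rh50 were lost whichever sample was left out, and with the replicate block SLC4A1 had an adjusted p of 0.095 and blvrb of 0.069.

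In muscle, myhc4 (a fast myosin heavy chain in a tandem cluster of near-identical copies on chromosome 5) was the only one of 21 myosin heavy chains called: 6814, 2372, 1516 and 4128 in WT against 42, 32, 94 and 76 in klf9-/- larvae (log2 -5.83, adjusted p = 0.00082). Counting can split reads among the copies, which was not tested here. The next gene in order, myha, was at -0.72 (limma adjusted p = 0.31), and under cortisol at -0.94 (adjusted p = 0.015). Outside the lists and chosen after their values were seen, SMYD1 and INPP5K were called. SMYD1, the methyltransferase that assists myosin folding in the sarcomere, fell from 2860 ± 124 to 1940 ± 249 (SD, n = 4 each, log2 -0.57, adjusted p = 0.035, with the replicate block 0.071). Its call was lost in 6 of 8 fits with a sample left out, and under cortisol it was at -0.09 (limma adjusted p = 0.72). The nonmuscle myosin MYH10 had 1420, 1314, 1462 and 1453 in WT and 996, 1053, 1212 and 1066 in klf9-/- larvae, without overlap, and just missed the threshold (log2 -0.39, adjusted p = 0.052). No gene of 48 sarcomere genes tested was called, and their median was 0.04. INPP5K, an inositol polyphosphate phosphatase expressed in muscle, rose (0.48, adjusted p = 0.016).

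A set of 7 genes, chosen after their values were seen, was nearly absent from WT larvae and present in every klf9-/- sample. For si:dkey-149m13.3 all 4 WT samples are listed at 0, and klf9-/- samples had 42, 50, 84 and 92 normalized counts. For si:ch211-64i20.6 all 4 WT samples are also listed at 0, against 12, 40, 37 and 33. The most abundant of the set, si:ch211-114l13.11, had 4, 2, 18 and 26 in WT and 450, 711, 1356 and 1060 in klf9-/- larvae. The WT values of si:dkey-47k20.6, si:ch211-250o15.5, si:ch211-22k7.1 and si:dkey-10g2.5 were between 0 and 9, and their klf9-/- values between 8 and 111. The gap was present under cortisol too, with 1, 68, 46 and 25 against 667, 484, 674 and 864 for si:ch211-114l13.11. No chromosome and no function was assigned to these genes by the annotation used, and their log2 differences depend on the 0.1 added to each value: that of si:ch211-114l13.11 was 6.69 as deposited and 5.36 with 10 normalized counts added. With the replicate block si:dkey-10g2.5 had an adjusted p of 0.068.

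The other large rises were smaller in size. TMC1, which encodes a channel of hair cell mechanotransduction and lies 7 genes from klf9, had 24, 17, 20 and 22 in WT and 108, 112, 112 and 100 in klf9-/- larvae (log2 2.38, adjusted p = 4.1e-05), and TMC2, of the same family and chosen after its values were seen, had 5, 8, 10 and 9 against 24, 25, 23 and 25 (log2 1.63, adjusted p = 0.015). The lipid-binding annexin anxa1b had 338, 350, 232 and 157 against 856, 1400, 619 and 422 (log2 1.55, adjusted p = 0.0091), and the cell surface glycoprotein gene thy1 had 80, 111, 84 and 58 against 324, 292, 184 and 162 (log2 1.51, adjusted p = 0.0041). Both are on chromosome 5. On chromosome 17, bnip4, of a family of mitochondrial BCL2-interacting proteins, had 117, 99, 72 and 96 against 245, 338, 174 and 190 (log2 1.27, SE 0.14, adjusted p = 0.005). Mutant samples lay above all WT samples for each of these 5 genes. The remaining rises named by the rule were trpv1 (a heat-gated channel, 0.91), mpdu1a (dolichol-linked mannose use, 0.92) and si:ch211-130m23.5 (1.23). The remaining falls were zgc:153932 (-1.24), si:dkey-69o16.5 (-1.44), ENSDARG00000095200 (-1.32), ENSDARG00000077960 (-0.96) and rps11l (a copy of a ribosomal protein gene, -0.95), all of these at adjusted p between 0.0023 and 0.047. With the replicate block ENSDARG00000095200 and rps11l had adjusted p of 0.072 and 0.059. The fall of si:dkey-69o16.5 was not seen under cortisol (0.17, adjusted p = 0.82).

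Among other genes of metabolism and protein turnover, all chosen after their values were seen, pdha1a (a subunit of pyruvate dehydrogenase, chromosome 5) had 3068, 2958, 2906 and 3068 in WT and 2178, 2178, 2451 and 2249 in klf9-/- larvae (log2 -0.41, adjusted p = 0.034, with the replicate block 0.081). Replicates lay close together in both genotypes, with a clear gap between them. SHPK, a kinase of the sugar sedoheptulose on chromosome 5, had 27, 19, 11 and 21 against 5, 5, 4 and 6 (log2 -1.89, adjusted p = 0.028). IARS1 (isoleucyl-tRNA synthetase) and SLC43A2 (an amino acid transporter) also fell, by 0.55 and 0.53 on the log2 scale (adjusted p = 0.016 and 0.047, the latter 0.075 with the replicate block). The small heat shock protein gene hspb15, on chromosome 5, rose from 98 to 121 in WT samples to 155 to 184 in klf9-/- samples (log2 0.67, adjusted p = 0.021).

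The share of genes called was larger on the chromosome of the mutated gene than elsewhere, and largest near that gene. Of the 107 called genes, 74 were placed on a chromosome. Of 862 tested genes placed on chromosome 5, klf9 included, 24 were called (2.78%), 11 higher and 13 lower, against 50 of 14149 placed on other chromosomes (0.353%). Counted in gene order and without klf9 itself, 9 of 132 tested genes within 100 genes of klf9 were called (6.82%), and 7 of 597 on the same chromosome more than 200 genes away (1.17%). Genes of chromosome 5 in the groups above are tcnba, tcn2, c5, c9, histh1l1, smarca1, hsd20b2, myhc4, pdha1a, SHPK, hspb15, TMC1, anxa1b, thy1, trpv1, mpdu1a, cyp1d1 and ENSDARG00000077960. Loss of Klf9 and other alleles inherited with the mutated chromosome cannot be told apart for these genes. None of the sterol or enterocyte list members called is placed on chromosome 5, but CYP51A1 and LCT are placed on no chromosome. Wherever a called gene lies, loss of Klf9 also cannot be told apart from the parents or the dish of each genotype.

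Glucocorticoid receptor targets, other than klf9 itself, gave a single call. Of 24 measured, 2 fell: klf9 and hsd20b2 (chromosome 5), whose product takes part in the breakdown of cortisol in zebrafish. For hsd20b2, 308, 316, 251 and 224 in WT stood against 192, 177, 148 and 139 in klf9-/- larvae (log2 -0.74, SE 0.076, adjusted p = 0.0041). TAT, PCK1 and sgk1 were at -0.37, -0.66 and -0.26 (adjusted p = 0.19, 0.20 and 0.25). At an unadjusted limma p under 0.05, 5 of the 24 targets were lower, klf9 and hsd20b2 included, and 0 higher. Over all genes tested the shares were 7.54% and 6.82%. The median of the targets was -0.01. None of 17 tested genes of the stress axis and steroid enzymes, 38 of the circadian clock or 11 of thyroid hormone signalling passed, and their medians were -0.04, 0.02 and 0.06. At an unadjusted p under 0.05 these lists held 1, 3 and 0 genes. Of 31 genes of the KLF and SP families none but klf9 was called. The nearest were KLF3 at 0.21, KLF11 at -0.21, SP1 at -0.35 and klf13 at 0.26 (adjusted p = 0.26 to 0.29).

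Glycolysis and glycogen genes gave no call, although 22 of 33 glycolysis genes were higher (median 0.10). At an unadjusted limma p under 0.05, 8 glycolysis genes were higher and 0 lower. On the list of 33 gluconeogenesis and glycogen genes, 10 were higher and 2 lower. Over all genes tested 6.82% were higher and 7.54% lower. The glycolysis genes nearest to the threshold were GPI (0.35, adjusted p = 0.068) and ldhbb (0.40, adjusted p = 0.087), and pgm1 of the glycogen list was at 0.34 (adjusted p = 0.067). Under cortisol 29 of the 33 glycolysis genes were higher in klf9-/- larvae, 6 called, with a median of 0.22. For the glycogen list 2 were called higher and 1 lower, with a median of 0.14. Of all genes tested, 0.881% were called higher and 1.99% lower under cortisol. Immune lists gave no call in vehicle: none of 22 interferon-stimulated, 23 macrophage, 14 neutrophil or 33 cytokine genes passed, and the medians lay between -0.02 and 0.03. At an unadjusted limma p under 0.05, 4, 0, 2 and 4 of them were higher and 1, 0, 1 and 5 lower. Over all genes tested the shares were 6.82% and 7.54%. Medians on day 1 alone and day 2 alone were 0.26 and -0.18 for macrophage genes and 0.15 and -0.07 for cytokine genes. Under cortisol the same genotype comparison gave medians of -0.82, -0.41, -0.22 and -0.21, with 11, 8, 3 and 6 genes called lower, against 1.99% of all genes tested. The difference between the treatments was called for 4 of the 22 interferon-stimulated, 4 of the 23 macrophage, 1 of the 14 neutrophil and 1 of the 33 cytokine genes, against 0.219% of all genes tested. Among 42 xenobiotic enzymes cyp3a65, a cytochrome P450 of liver and intestine, was the only one called (-0.46, adjusted p = 0.031, with the replicate block 0.069). Outside the list and chosen after their values were seen, cyp1d1 and GSTM3 rose (0.77 and 0.64, adjusted p = 0.0067 and 0.038). Neuronal (39 synaptic), photoreceptor (52), ribosomal protein (75), heat shock and unfolded protein (24), oxidative stress (28), skin and ionocyte (24), myelin and glia (24), lens and retina (16), acute phase (12), bile acid (16), fatty acid oxidation (20) and muscle atrophy and growth (21) genes gave no call, with medians from -0.11 to 0.11. Some lists leaned to 1 side: 32 synaptic genes were higher and 7 lower, and 3 fatty acid oxidation genes were higher and 17 lower. Over all genes tested 51.4% were higher. At an unadjusted limma p under 0.05, 8 photoreceptor genes were higher and 0 lower, against 6.82% and 7.54% of all genes tested.

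**Figure D5:**
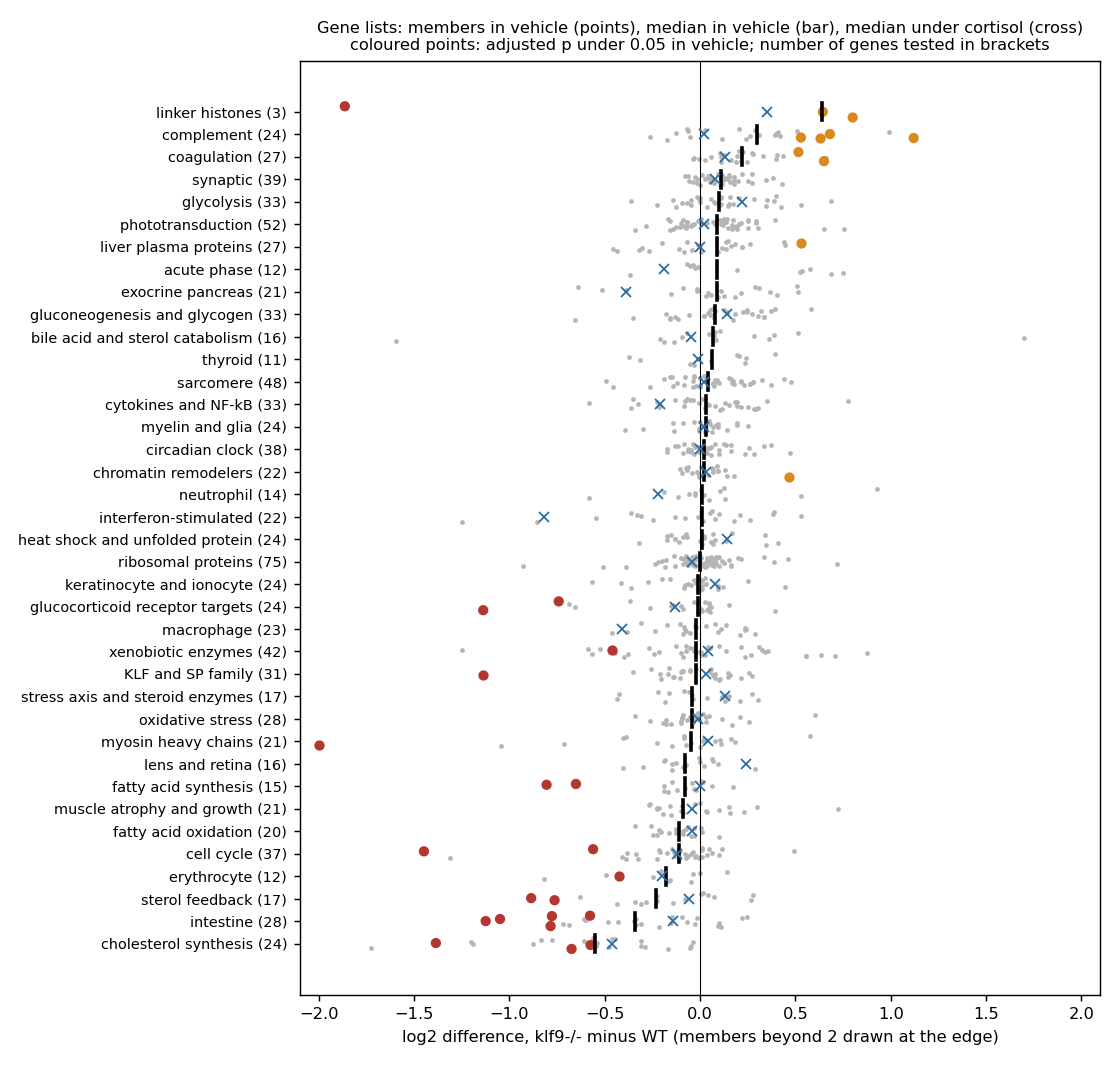
Log2 difference between klf9-/- and WT larvae (x axis) for the members of 38 gene lists (rows, ordered by their median in vehicle), with grey points for members that were not called, orange for members that rose and red for members that fell, a black bar for the median in vehicle and a blue cross for the median in cortisol-treated larvae. Cholesterol synthesis (-0.55) and intestine (-0.34) have the lowest medians, linker histones (0.64, of 3 genes) and complement (0.30) the highest, and the interferon-stimulated list is at 0.01 in vehicle and -0.82 under cortisol.

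The 107 genes were then read in the other 8 samples, in which both genotypes had received cortisol. Of these, 103 had the same sign (96.3%, against 61.8% of all genes tested), and 56 were called in the same direction (52.3%, where 2.87% of all genes tested were called, 0.881% higher and 1.99% lower), 22 of the 45 that rose and 34 of the 62 that fell. For the 24 genes on chromosome 5 the number was 21, and for the other 83 it was 35 (42.2%). With any of the 8 cortisol samples left out, 42 to 57 of the 107 were called. The genotype difference itself differed between vehicle and cortisol for 2 of the 107, c3a.3 and an unnamed gene, where 0.219% of all genes tested were called. A fit of the difference between preparation days in vehicle called no gene with limma, while 888 genes (4.14%) had an unadjusted p under 0.05.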

How the data were processed

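RNA of whole zebrafish larvae was sequenced as single-end reads of poly(A)-selected libraries. The authors trimmed reads with Trimmomatic 0.38, aligned them with STAR 2.6.1b to GRCz11 and estimated counts with RSEM 1.3.0. In R 3.6.1 they normalized with EDASeq (GC content within samples, then full quantile between samples), and the deposited values are log2 of the normalized count plus 0.1. Their own tests, not used here, were of DESeq2 1.24.0.

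Here limma 3.58.1 (R 4.3.3) was fitted to the 8 vehicle samples with genotype and preparation day, with a variance trend, over the 21461 genes whose mean reached 5 normalized counts (1533 did not). P-values were two-sided and were adjusted by Benjamini-Hochberg over that whole set, with a threshold of 0.05. The model was tested on simulated data. Named genes are klf9, the 15 largest rises and 15 largest falls among called genes with a symbol, the same sign in all 4 same-numbered differences and a mean of at least 50 in the higher genotype, list members that were called, and up to 5 further members by smallest p. Other called genes that are named were chosen after their values were seen. Members and lists were chosen with earlier results of these data known. Of 1055 list names 983 were found. Promoter sequences were not analysed here. Chromosomes and gene order come from RefSeq for GRCz12tu, so no positions are given.

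Deviations of same-numbered samples from their genotype means correlated across genes (r = 0.22, 0.53, 0.22 and 0.45). A preparation day shared by same-numbered samples, as the paper's methods describe, would give such correlations. From means of genotype and day r was 0.11 and -0.07, so the model holds the day, and replicate number as a block was an alternative. The others were other sample sets, filters, added counts, centring, weights, each day alone and each sample left out. Tables and figures were made with Python 3.11.15, pandas 2.3.3 and matplotlib 3.10.9. Results for some genes are not reported here.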

Additional observations from a re-analysis of the deposited data

Results flagged for a closer look

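For 107 genes named in the text, 214 groups of 4 samples were examined for a sample that stands apart. These genes include some that were not called, so the set is not that of the 107 called genes. A sample stood apart in 6 groups, all of them of WT larvae. Chance alone flags about 1 group in 20, a larger share than was found here. WT replicate 2 was low for histh1l1, with 3625 normalized counts against 4538 to 4654 in the other WT samples, and high for ldlrb (268 against 177 to 192), CUBN (278 against 239 to 242) and si:dkey-10g2.5 (1 against 0). WT replicate 3 was high for si:ch211-250o15.5 (9 against 0 to 1) and si:ch211-22k7.1 (1 against 0), genes that are nearly absent from WT larvae. The genotype difference of c3a.3 differed between treatments, with a change of -0.95 on the log2 scale from vehicle to cortisol (adjusted p = 0.0098, limma).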

How the results depend on the processing

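The count of 45 genes higher and 62 lower depended on the model. It was 202 and 297 with all 16 samples and a mean for each condition and day, 199 and 209 with array weights, 15 and 12 without a variance trend, and 6 and 4 without preparation day. It was 0 and 0 on day 1 alone and 1 and 1 on day 2 alone. All 107 genes kept their sign on each day, but they were picked from these same samples, so that is no separate test. A mean of at least 75 gave 28 genes higher, with the fewer genes tested. Leaving out each sample gave 17 to 51 higher and 11 to 81 lower. With the replicate block it was 47 and 43, and 71 of the 107 genes were called the same way. With all 16 samples and 1 day term 61 of the 107 were. The log2 difference of klf9 was -1.14 without preparation day and without a trend (adjusted p = 0.21 and 0.10), -1.35 on day 1 alone and -0.93 on day 2 alone, and ranged from -1.29 to -0.94 with a sample left out, where only the fit without WT replicate 4 kept the call. The number called the same way under cortisol ranged from 42 to 57 with a sample left out. Summing both RRM2 genes, an alternative chosen after seeing the data, gave -0.08. No named gene changed sign under any alternative tried. The causes of these shifts were not tested. Depth is unknown, so no detection limit can be given.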
